A study of Mus musculus with 24 samples.

Results

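The genes described here were high in EO771 mammary carcinoma cells that had spontaneously turned on podoplanin (PDPN) and carried no Ccr7 transgene. They were low both in the vector control and in PDPN-positive cells that carried a Ccr7 transgene, whose PDPN was also spontaneous. They were chosen from the batch 2 count table by their levels alone. A gene was taken when its mean in X2-PDPN was at least 1 CPM (the usual read count scaled to a common library total), at least 3 times the mean of X2 and at least 3 times the mean of CCR7-PDPN. Of 13915 genes in that table, 11415 reached 1 CPM in X2-PDPN, 113 of these were 3 times above X2, 294 were 3 times above CCR7-PDPN, and 51 met all criteria (0.367% of the table). The contrasts of X2-PDPN with X2 and with CCR7-PDPN are therefore given as a description without a test. CCR7 cells, which were sequenced only in batch 1, played no part in the choice.

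EO771 is a mouse mammary tumour line from a spontaneous tumour of C57BL/6 mice. The derivatives were made by transduction with the retroviral vector PLNCX2. A tdTomato reporter served to trace the cells. According to the paper its level was compared across derivatives, and X2 tumours were stained for it too. X2 was the vector control, and X2-PDPN came from a sort of X2 for PDPN. CCR7 and CCR7-PDPN were the PDPN-negative and PDPN-positive sorts of cells given mouse Ccr7 cDNA, and in both PDPN-positive derivatives PDPN had appeared spontaneously. None was a clone, the sorts enriched cells rather than purified them, and a group consisted of 4 technical replicates, so that the spread and the p-values below measure technical variation of 1 population each. The derivatives of batch 1 were X2, CCR7 and CCR7-PDPN, those of batch 2 X2, X2-PDPN and CCR7-PDPN, with 22275468 to 35721027 reads counted per library. As a check of the labels, Pdpn, the sorted surface glycoprotein, had 25.7 ± 0.187 CPM in X2-PDPN, 25.3 ± 1.54 and 24.4 ± 0.915 in CCR7-PDPN of batch 1 and batch 2, 0.413 ± 0.150 in CCR7, and 0.0626 ± 0.0430 and 0.162 ± 0.0795 in X2 (SD, n = 4, here and throughout). Ccr7 stood at 2791 ± 45.8 CPM in CCR7 and at 0.662 ± 0.245 in X2-PDPN.

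The genes do not form a known pathway, but several belong to families with shared work. Fibril-associated collagens such as type IX collagen, small leucine-rich proteoglycans and the integrin-binding protein encoded by Tgfbi decorate and link fibres of the extracellular matrix. Cell surface receptors among them read chemerin, semaphorins, hedgehog ligands and bone morphogenetic proteins. A further group holds oxidising and conjugating enzymes that handle aldehydes and xenobiotics, which are best known from liver and airway.

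For members on which the results turn, the 250 bases before an annotated start are printed, from RefSeq on GRCm38.p6, read 5′ to 3′ on the strand of the gene. The windows of Cmklr1, Gm4316 and Slco2b1 lie inside the gene spans used for counting. These spans are chr5:113612354-113650426, chr8:123165255-123178765 and chr7:99657804-99711340, so these 3 windows are not the sequence in front of the whole gene. Capitals mark any of 4 motifs on either strand, namely the TATA box (TATAAA), the GC box (GGGCGG), the AP-1 site (TGANTCA) and the letters that TEAD factors recognise (GGAATG, which on the other strand reads CATTCC). The first set holds genes that were also higher in CCR7 cells than in X2; Meox1, which behaved alike, had no entry.
Col9a1 (chr1:24177360-24177609, plus strand): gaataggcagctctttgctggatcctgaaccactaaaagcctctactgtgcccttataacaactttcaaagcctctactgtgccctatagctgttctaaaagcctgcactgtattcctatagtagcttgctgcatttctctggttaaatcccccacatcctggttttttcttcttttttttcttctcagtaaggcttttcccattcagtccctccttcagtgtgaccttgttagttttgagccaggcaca
Cmklr1 (chr5:113643604-113643853, minus strand): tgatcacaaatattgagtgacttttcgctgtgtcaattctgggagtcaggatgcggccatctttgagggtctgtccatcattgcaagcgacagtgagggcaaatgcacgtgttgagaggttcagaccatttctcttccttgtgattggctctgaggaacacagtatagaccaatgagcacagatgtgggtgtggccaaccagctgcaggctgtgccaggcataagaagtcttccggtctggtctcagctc
Slc9a9 (chr9:94669642-94669891, plus strand): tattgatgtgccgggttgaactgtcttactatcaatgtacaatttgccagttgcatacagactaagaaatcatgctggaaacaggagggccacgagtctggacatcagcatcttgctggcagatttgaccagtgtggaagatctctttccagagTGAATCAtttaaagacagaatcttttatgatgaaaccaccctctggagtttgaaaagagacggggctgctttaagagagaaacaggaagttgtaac
The second set holds genes whose window carries the letters GGAATG or CATTCC. Rcn3 was low in CCR7 cells, Igfbp5 had few reads outside X2-PDPN, and Dpep1 and Gm4316 are neighbours on chromosome 8. Slco2b1 is shown for 1 of its 3 annotated starts, taken because its window holds these letters. The Slco2b1 window at the outer 5′ end of the gene (chr7:99711341-99711590) held none of the 4 motifs.
Igfbp5 (chr1:72874866-72875115, minus strand): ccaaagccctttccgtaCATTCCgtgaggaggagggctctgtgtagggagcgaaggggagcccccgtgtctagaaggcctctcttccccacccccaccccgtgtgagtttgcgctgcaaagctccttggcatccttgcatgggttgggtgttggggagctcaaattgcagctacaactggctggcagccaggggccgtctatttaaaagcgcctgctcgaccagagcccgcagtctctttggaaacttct
Rcn3 (chr7:45092214-45092463, minus strand): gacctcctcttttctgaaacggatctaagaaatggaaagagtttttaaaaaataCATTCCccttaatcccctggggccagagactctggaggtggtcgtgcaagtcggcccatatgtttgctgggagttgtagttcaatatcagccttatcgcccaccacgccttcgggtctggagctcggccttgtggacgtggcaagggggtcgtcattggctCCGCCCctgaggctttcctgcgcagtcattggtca
Slco2b1 (chr7:99706843-99707092, minus strand): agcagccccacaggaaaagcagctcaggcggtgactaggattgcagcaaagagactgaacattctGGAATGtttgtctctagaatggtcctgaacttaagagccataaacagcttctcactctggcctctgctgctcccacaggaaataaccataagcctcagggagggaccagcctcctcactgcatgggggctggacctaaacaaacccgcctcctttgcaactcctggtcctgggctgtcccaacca
Dpep1 (chr8:123185985-123186234, plus strand): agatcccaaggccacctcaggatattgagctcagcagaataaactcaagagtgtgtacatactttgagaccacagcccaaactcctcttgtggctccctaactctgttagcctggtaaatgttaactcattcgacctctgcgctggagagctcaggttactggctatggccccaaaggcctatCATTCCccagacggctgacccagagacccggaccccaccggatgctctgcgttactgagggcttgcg
Gm4316 (chr8:123172312-123172561, plus strand): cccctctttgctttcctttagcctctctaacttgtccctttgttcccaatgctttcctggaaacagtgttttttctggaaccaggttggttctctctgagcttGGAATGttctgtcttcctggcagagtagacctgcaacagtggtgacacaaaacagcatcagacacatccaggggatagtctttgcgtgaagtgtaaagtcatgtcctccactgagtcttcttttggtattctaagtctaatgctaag
The windows printed for Col9a1 and Cmklr1 held none of the 4 motifs. That of Slc9a9 held TGAATCA, a match to the AP-1 letters only as searched here, with any base at N. Rcn3 also held a GC box.

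Across the 51 genes the median of the group means was 3.19 CPM in X2-PDPN. It was 0.689 CPM in X2 of batch 2, 0.353 CPM in CCR7-PDPN of batch 2, and 0.809, 0.437 and 0.347 CPM in X2, CCR7 and CCR7-PDPN of batch 1. The X2-PDPN means ran from 1.01 CPM in Tceal8 to 108 CPM in Tgfbi. Scaled to gene length as well (TPM), 41 of the 51 had a mean of at least 1 in X2-PDPN, against 15 in X2 and 12 in CCR7-PDPN of batch 2. The median fold of X2-PDPN over X2 was 4.45, beside 0.992 for all genes of at least 1 CPM in X2-PDPN. In 49 genes every X2-PDPN library lay above every other library of either batch, as it did for 9.19% of all genes of the table, a count in which the contrasts of the choice take part. The exceptions were Cmklr1 and Slc9a9, which overlapped with CCR7. The coefficient of variation among X2-PDPN libraries was 1.36% to 39.5% (median 10.0%).

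**Figure D1:**
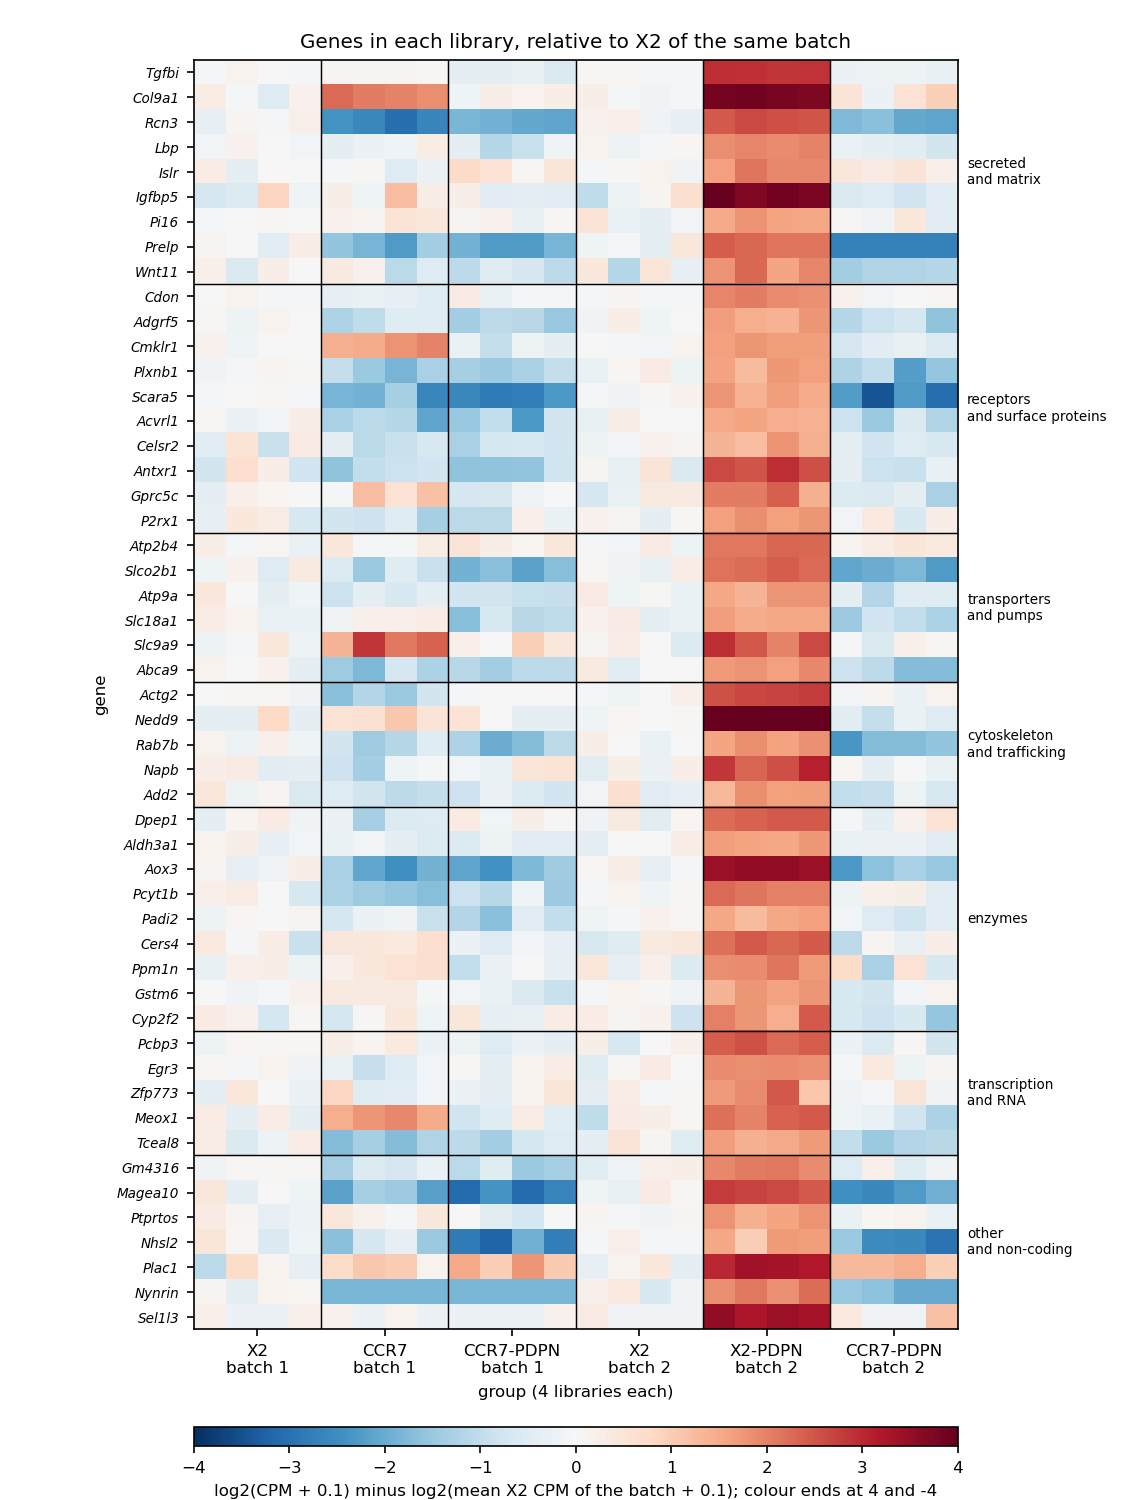
Heat map of the 51 genes (rows, grouped by role) in 24 libraries (columns, 4 per group), as log2(CPM + 0.1) minus the same value of the mean of X2 of that batch. The X2-PDPN columns are red in every row, Col9a1, Cmklr1, Meox1 and Slc9a9 are also red in CCR7, and rows such as Rcn3, Aox3 and Scara5 are blue in CCR7 and CCR7-PDPN.

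The edges of the choice were close to genes left out. Over X2, Acvrl1, Celsr2 and Adgrf5 were just inside at 3.01, 3.05 and 3.08 times, and Fcho1, Hand1 and Gm807 just outside at 2.92, 2.90 and 2.86 times. Over CCR7-PDPN, Islr, Pi16 and Ptprtos were just inside at 3.06, 3.25 and 3.49 times, and Rarres2, Egr1 and Gm2381 just outside at 2.80, 2.77 and 2.77 times. Rarres2 encodes chemerin, the ligand of the receptor encoded by the member Cmklr1, and had 1.82 CPM in X2-PDPN against 0.575 in X2. By level, Tceal8, Abca9 and Sel1l3 were just inside at 1.01, 1.04 and 1.05 CPM, and Gm12845, Iyd and Tex13b just outside at 0.976, 0.972 and 0.862 CPM.

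X2 and CCR7-PDPN were sequenced in both batches, which shows how steady the low levels were. X2 of the batches differed by less than 1.5 times in 46 of the 51 genes, and CCR7-PDPN in 44. When X2 and CCR7-PDPN of batch 1 took the place of those of batch 2, 45 of the 51 genes still met the 3-fold criteria. The genes that did not were Acvrl1, Celsr2, Gstm6, Nhsl2, Padi2 and Ptprtos. Since the X2-PDPN libraries were the same, this is no second measurement of the X2-PDPN level.

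Among the secreted and matrix genes, Tgfbi (ENSMUSG00000035493, chr13:56609523-56639562 on GRCm38), which encodes a matrix protein that binds integrins and collagens had 108 TPM in X2-PDPN, the highest of the 51 per length, followed by Ptprtos at 25.5 TPM. Its libraries had 111, 109, 105 and 108 CPM in X2-PDPN against 14.7, 15.3, 13.5 and 13.9 in X2, 7.53 times as much on average. In CCR7 cells Tgfbi had 15.9, 16.0, 16.1 and 15.7 CPM and in CCR7-PDPN of batch 1 11.6, 11.6, 12.1 and 9.81. All 20 libraries other than those of X2-PDPN thus lay between 9.81 and 16.3 CPM. Col9a1 (ENSMUSG00000026147, chr1:24177610-24252684), the alpha 1 chain of type IX collagen of cartilage, had 12.4, 12.4, 12.0 and 11.4 CPM in X2-PDPN. It had 0.931, 0.716, 0.692 and 0.733 CPM in X2 and 1.14, 0.637, 1.19 and 1.56 in CCR7-PDPN of batch 2, a mean fold of 15.7 over X2 and 10.6 over CCR7-PDPN. Rcn3, a calcium-binding protein of the endoplasmic reticulum with a part in collagen production, had 10.0, 11.3, 11.0 and 10.3 CPM in X2-PDPN, 1.97, 2.04, 1.58 and 1.37 in X2 and 0.439, 0.478, 0.346 and 0.327 in CCR7-PDPN. Its CCR7-PDPN level was thus below that of X2, so that the fold of X2-PDPN was 6.12 over X2 and 26.8 over CCR7-PDPN. Igfbp5, a binding protein of insulin-like growth factors, went from 1, 4, 6 and 10 reads per library in X2 to 134, 125, 116 and 100 in X2-PDPN, 21.8 times by mean CPM. Prelp, a small leucine-rich proteoglycan, had 103, 111, 82 and 75 reads in X2-PDPN, 13, 15, 12 and 24 in X2 and 0 in each CCR7-PDPN library of batch 2, which makes X2-PDPN at least 22.8-fold higher than CCR7-PDPN when 3 reads in the shallowest library are taken as the floor. Lbp, the lipopolysaccharide-binding protein, Islr, Pi16 and the non-canonical ligand gene Wnt11 had X2-PDPN means of 3.99, 4.03, 3.26 and 4.80 times X2. Islr shares 1725 exonic bases with Islr2 on the same strand, so its value is uncertain. Rcn3 shares 1544 of its 1717 exonic bases with Gm45669 on the opposite strand. Since the strand setting of the counting is not given, the Rcn3 values here and below are uncertain too.

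Among the 10 receptors and surface proteins, Cdon, a co-receptor for hedgehog ligands, had 11.7, 12.4, 11.3 and 10.6 CPM in X2-PDPN and 2.87, 3.22, 2.87 and 2.83 in X2 (3.91 times). The means of Cdon in the other groups lay between 2.33 and 3.02 CPM. Cmklr1, the chemerin receptor, had 5.15, 5.63, 5.32 and 5.33 CPM in X2-PDPN, 1.60, 1.54, 1.45 and 1.77 in X2 and 0.965, 1.15, 1.29 and 1.06 in CCR7-PDPN of batch 2. Adgrf5, an adhesion G protein-coupled receptor, had 6.05 ± 0.778 CPM in X2-PDPN and 1.97 ± 0.299 in X2, and Plxnb1, a semaphorin receptor, 4.25 ± 0.584 and 1.37 ± 0.289. Scara5, a scavenger receptor that takes up ferritin, was at 3.20 times X2, but CCR7-PDPN had only 3, 0, 4 and 1 reads per library, against 111, 98, 100 and 81 in X2-PDPN. Acvrl1, a type I receptor for circulating bone morphogenetic proteins, had 2.40 ± 0.145 CPM in X2-PDPN and 0.798 ± 0.136 in X2. Antxr1, a collagen-binding surface protein, had the largest fold over X2 of this group (9.12) at a low level, 54, 57, 65 and 46 reads in X2-PDPN against 6, 4, 10 and 3 in X2. The polarity cadherin Celsr2, the orphan receptor Gprc5c and the ATP-gated channel P2rx1 had 1.19 to 2.02 CPM in X2-PDPN.

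Of the 6 transporters and pumps, Atp2b4, a plasma membrane calcium pump, had 9.38, 9.35, 10.9 and 10.5 CPM in X2-PDPN and 1.97, 1.90, 2.64 and 1.80 in X2. Slco2b1, an uptake carrier of organic anions, had 6.85, 7.14, 8.13 and 7.28 CPM in X2-PDPN, 1.53, 1.29, 1.15 and 1.77 in X2 and 0.263, 0.287, 0.346 and 0.218 in CCR7-PDPN. As for Rcn3 and Scara5, its CCR7-PDPN libraries lay below those of X2, with folds of 5.12 and 26.4 over those derivatives. Slc9a9, an endosomal sodium-proton exchanger, had 43, 36, 20 and 31 reads in X2-PDPN and 3, 4, 3 and 1 in X2. The lipid-transporting ATPase gene Atp9a, the vesicular monoamine transporter gene Slc18a1 and Abca9 were at 3.38, 3.24 and 4.43 times X2.

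In the cytoskeletal and trafficking group, Actg2, the smooth muscle gamma actin, had 9.18, 9.83, 10.2 and 10.7 CPM in X2-PDPN against 1.42, 1.29, 1.48 and 1.70 in X2 and 1.36, 1.59, 1.19 and 1.64 in CCR7-PDPN (6.79 and 6.91 times). Nedd9, a scaffold protein of focal adhesions, was close to silent elsewhere. It had 155, 162, 131 and 137 reads in X2-PDPN, 2, 3, 3 and 3 in X2, 1, 0, 2 and 1 in CCR7-PDPN of batch 2 and 3, 3, 6 and 2 in CCR7. Rab7b, a small GTPase of late endosomes, had 4.48 ± 0.451 CPM in X2-PDPN and 1.28 ± 0.193 in X2. Napb, a SNAP protein of vesicle fusion, and Add2, beta-adducin, had 2.49 ± 0.600 and 1.61 ± 0.247 CPM in X2-PDPN, 8.71 and 3.59 times X2.

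Among the enzymes, Dpep1, a membrane dipeptidase, had 7.28, 8.09, 8.50 and 8.49 CPM in X2-PDPN and 1.34, 1.93, 1.09 and 1.57 in X2. Aldh3a1, an aldehyde dehydrogenase, had 8.10, 7.59, 7.38 and 8.46 CPM in X2-PDPN and 1.90, 2.47, 2.47 and 3.03 in X2, 3.19 times. Aox3, an aldehyde oxidase, had 7.64, 8.06, 8.06 and 7.50 CPM in X2-PDPN, 0.633, 0.752, 0.462 and 0.567 in X2 and 1, 4, 6 and 4 reads in CCR7-PDPN. Its X2-PDPN mean was 13.0 times X2, and no ratio is given to CCR7-PDPN, where the mean was under the level of 3 reads. Pcyt1b, which makes the activated choline of phosphatidylcholine synthesis, was at 4.93 times X2, and Cers4, a ceramide synthase, at 6.57 times. Padi2, an arginine deiminase, the phosphatase gene Ppm1n, the glutathione transferase gene Gstm6 and the cytochrome P450 gene Cyp2f2 had 1.05 to 2.24 CPM in X2-PDPN.

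Of the genes for transcription and RNA-binding proteins, Pcbp3, which encodes a poly(C)-binding protein, had 10.8, 11.8, 9.62 and 10.7 CPM in X2-PDPN and 2.31, 1.22, 1.98 and 2.23 in X2. Egr3, an immediate early transcription factor, had 5.74, 5.65, 5.76 and 5.59 CPM in X2-PDPN and 1.04, 1.58, 1.88 and 1.47 in X2. Its relative Egr1, which missed the choice by its level in CCR7-PDPN, had 5.63 CPM in X2-PDPN, 1.75 in X2 and 2.03 in CCR7-PDPN. Meox1, a homeobox factor of somites, had 2.20, 1.88, 2.51 and 2.68 CPM in X2-PDPN and 0.149, 0.537, 0.494 and 0.433 in X2. Zfp773 had the highest coefficient of variation of the 51 among X2-PDPN libraries (39.5%), with 3.57, 4.03, 6.13 and 2.32 CPM, and Tceal8 had 1.01 ± 0.101 CPM.

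The remaining 7 genes included the long intergenic RNA Gm4316, with 7.41, 8.20, 8.50 and 7.28 CPM in X2-PDPN and 1.38, 1.68, 2.18 and 2.27 in X2, and Ptprtos, annotated as an antisense RNA. Magea10, a cancer-testis antigen gene on the X chromosome, had 163, 181, 142 and 116 reads in X2-PDPN, 16, 15, 27 and 22 in X2 and 1, 1, 2 and 3 in CCR7-PDPN. Plac1, a placental surface protein gene that is also on the X chromosome, had 51, 78, 62 and 52 reads in X2-PDPN, 2, 4, 6 and 2 in X2 and 10, 14, 16 and 9 in CCR7-PDPN, with a fold of 16.3 over X2. Every CCR7-PDPN library of batch 2 lay above every X2 library for Plac1. Sel1l3 had 36, 33, 32 and 27 reads in X2-PDPN and 1, 0, 0 and 0 in X2, so that X2 was close to 0. Nhsl2 had 2.10 ± 0.460 CPM and Nynrin 1.55 ± 0.222 CPM in X2-PDPN.

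**Figure D2:**
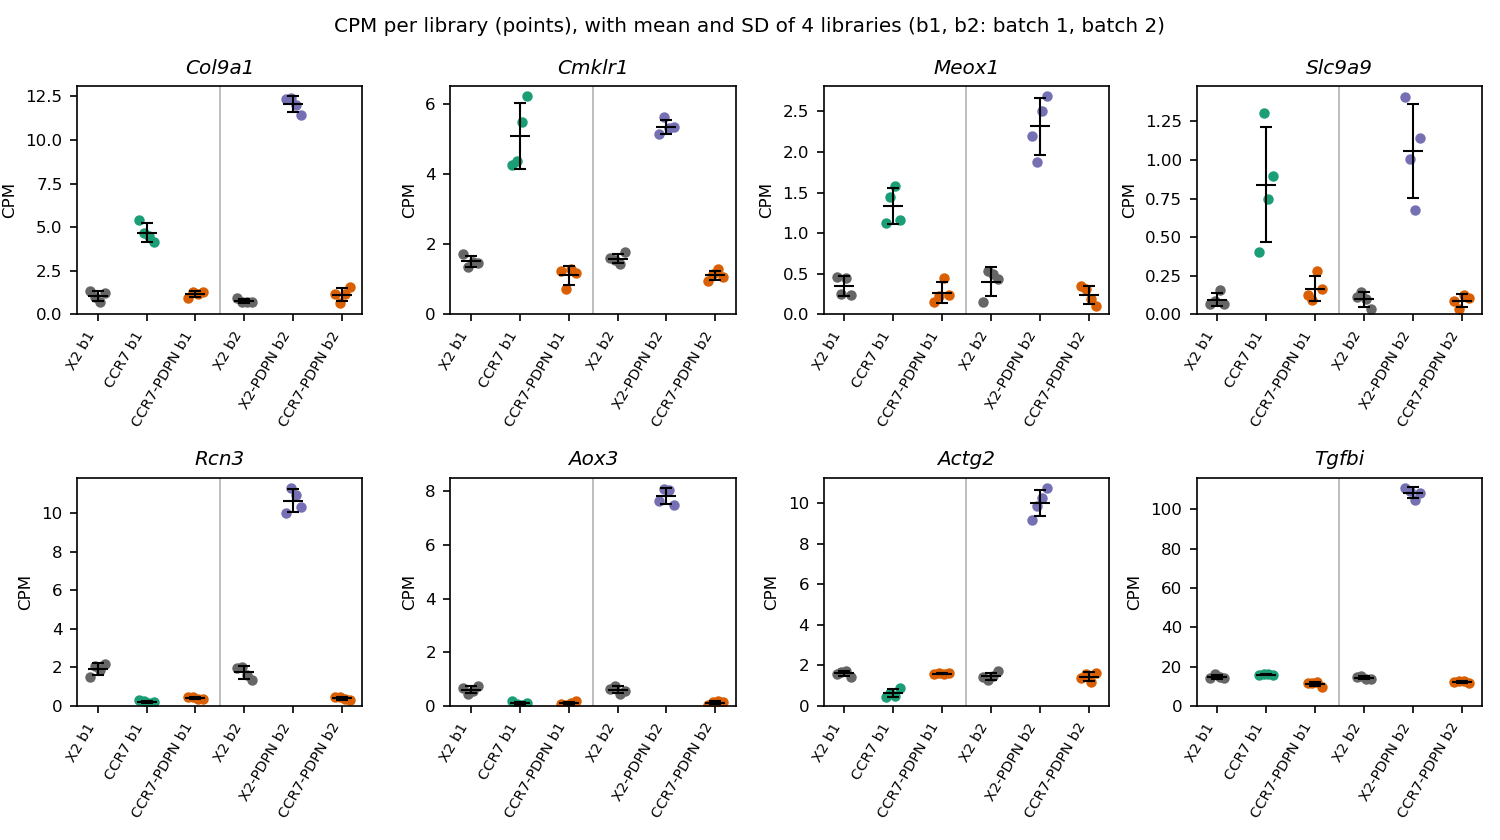
CPM of 8 genes in each library (points, coloured by derivative) with the mean and SD of the 4 libraries of each group, batch 1 left and batch 2 right of the grey line, each axis from 0. Col9a1, Cmklr1, Meox1 and Slc9a9 are higher in X2-PDPN and in CCR7 than in X2, Rcn3 and Aox3 are near 0 in CCR7 and CCR7-PDPN, Actg2 is lowest in CCR7, and Tgfbi stays at or under 16.3 CPM outside X2-PDPN.

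The comparison of CCR7 with X2 in batch 1 asked whether the genes also moved in PDPN-negative cells that expressed CCR7, in libraries that took no part in the choice. Of the 51 genes, 36 passed edgeR's filter on low counts and 15 were not tested because they had too few reads in batch 1, so the counts below do not speak for all members. By edgeR's quasi-likelihood test over 13261 genes (adjusted p under 0.05 and a log2 fold change beyond 1 either way), 4 members were higher and 10 lower in CCR7, while 22 were not called. Over all tested genes 3.3% were called higher and 3.18% lower. The median log2 fold change was -0.39 over the tested members and 0.00 over all genes tested. By ranges, 6 of the 51 had every CCR7 library above every X2 library and 18 had every one below, beside 18.5% and 24.6% of all genes. The share of the former was thus below the background and that of the latter above it. The background was not matched for level, and the members were low in batch 1 (median 0.809 CPM in X2 and 0.437 in CCR7). CCR7 and CCR7-PDPN were sorts of the same Ccr7-transduced cells, and the choice had required a low CCR7-PDPN level. Genes low in both sorts could therefore enter the set more easily. The excess of lower calls in CCR7 is thus not independent of the choice, and how much of it follows from the choice was not tested.

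Col9a1 was higher in CCR7, with 5.43, 4.68, 4.52 and 4.13 CPM against 1.33, 1.01, 0.706 and 1.20 in X2 of batch 1. The log2 fold change was 2.17 (SE 0.16, adjusted p = 2.65e-10), and the ranges did not overlap. Cmklr1 had 4.25, 4.37, 5.48 and 6.24 CPM in CCR7 and 1.72, 1.34, 1.51 and 1.48 in X2, a log2 fold change of 1.75 (SE 0.16, adjusted p = 6.69e-09). Its CCR7 libraries bracketed those of X2-PDPN, so that the ranges of the PDPN-negative CCR7 cells and X2-PDPN overlapped, though in different batches. Meox1 had 1.12, 1.44, 1.59 and 1.17 CPM in CCR7 and 0.456, 0.251, 0.449 and 0.241 in X2 (log2 fold change 1.93, SE 0.27, adjusted p = 4.69e-06). Slc9a9 had 13, 38, 25 and 20 reads in CCR7 and 2, 2, 5 and 2 in X2 (log2 fold change 3.05, SE 0.45, adjusted p = 8.24e-06). For Col9a1 and these 3 genes, then, the rise over the vector control was not confined to X2-PDPN. By mean CPM 5 members were at least 3 times higher in CCR7 than in X2 (1.12% of all genes were), the fifth being Nedd9, whose means in both were under the level of 3 reads.

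The genes called lower in CCR7 came from the matrix, receptor, cytoskeletal, enzyme and remaining genes, with none among the transporters or the transcription and RNA genes. Rcn3 had the largest fall of the 36 tested, from 1.51, 2.09, 1.86 and 2.20 CPM in X2 to 0.281, 0.241, 0.150 and 0.224 in CCR7 (log2 fold change -3.06, SE 0.24, adjusted p = 6.32e-10). Aox3 had 19, 11, 17 and 22 reads in X2 and 6, 2, 1 and 2 in CCR7 (adjusted p = 2.54e-05). Scara5 had 29, 25, 35 and 29 reads in X2 and 7, 6, 12 and 2 in CCR7 (adjusted p = 1.64e-06), and in none of these 3 genes did the groups overlap. Magea10 fell from 30, 13, 23 and 19 reads to 3, 7, 7 and 2. Pcyt1b, Plxnb1, Acvrl1 and Actg2 were lower by log2 fold changes of -1.76, -1.55, -1.54 and -1.38 (SE 0.35, 0.24, 0.32 and 0.20). Rab7b and Nhsl2 were called near the fold threshold, at -1.03 and -1.02. Rab7b was not called without CCR7 replicate 2 or 3 or X2 replicate 1 or 3 (log2 fold changes of -0.98 to -0.88), and Nhsl2 not without CCR7 replicate 1 or 4 or X2 replicate 1 or 2 (-1.01 to -0.76). Of the genes under the filter on low counts, Nynrin, Tceal8, Prelp and Abca9 were called lower in CCR7 by DESeq2 (adjusted p = 0.000154, 0.00481, 0.000859 and 0.0209) and by edgeR without the filter. By mean CPM, 11 of the 51 had at most 1/3 of their X2 level in CCR7, beside 1.86% of all genes. Tgfbi (0.12, SE 0.06), Pcbp3 (0.19, SE 0.15), Atp2b4 (0.20, SE 0.16), Cdon (-0.32, SE 0.13) and Aldh3a1 (-0.29, SE 0.15) did not pass the test.

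**Figure D3:**
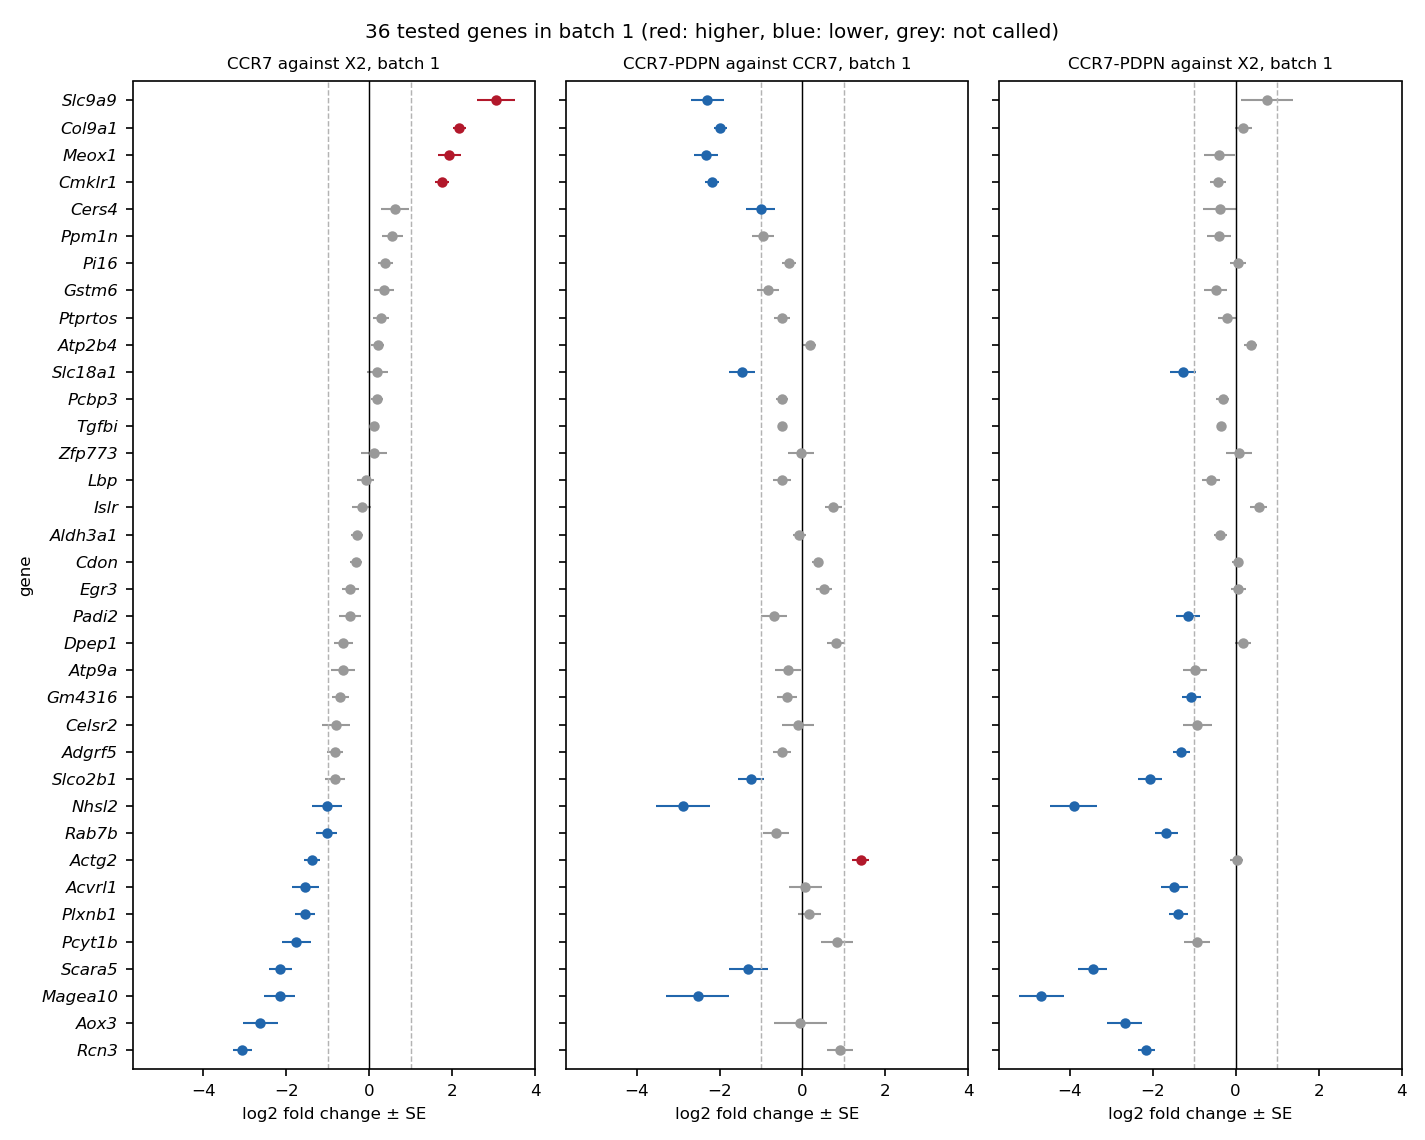
Log2 fold change with its SE for the 36 tested genes in the 3 comparisons of batch 1, in the order of CCR7 against X2, with dashed lines at 1 and -1. Red marks the 4, 1 and 0 genes called higher and blue the 10, 10 and 13 called lower in the panels from left to right; Slc9a9, Col9a1, Meox1 and Cmklr1 are red in the first and blue in the second.

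CCR7-PDPN against CCR7 in batch 1 set the PDPN-positive against the PDPN-negative sort of Ccr7-transduced cells. Here 1 member was higher and 10 were lower, beside 0.664% and 2.6% of all genes. The choice had required a low CCR7-PDPN level in batch 2, so an excess of lower calls partly follows from it. By ranges 4 of the 51 had every CCR7-PDPN library above and 12 every one below CCR7, beside 14.8% and 17.7% of all genes. The member called higher was Actg2, with 1.56, 1.62, 1.57 and 1.60 CPM in CCR7-PDPN and 0.437, 0.654, 0.509 and 0.898 in CCR7 (log2 fold change 1.40, SE 0.20, adjusted p = 8.89e-06). Without CCR7 replicate 1 or CCR7-PDPN replicate 4, 2 members were called higher, the other being Rcn3 in 1 fit and Pcyt1b in the other. Smooth muscle gamma actin was thus lower in CCR7 than in X2 and in CCR7-PDPN. The 4 genes called higher in CCR7 were each lower in CCR7-PDPN. Col9a1 had 0.938, 1.30, 1.19 and 1.30 CPM in CCR7-PDPN, -1.98 relative to CCR7 on the log2 scale (SE 0.15, adjusted p = 2.29e-09). Cmklr1 had 1.25, 0.731, 1.29 and 1.17 CPM (-2.17, SE 0.17, adjusted p = 1.59e-09). Meox1 and Slc9a9 had log2 fold changes of -2.32 and -2.30 (SE 0.29 and 0.40). A high X2-PDPN level and a low CCR7-PDPN level in batch 2 were set by the choice for all 51 genes. For these 4 genes, batch 1 added a rise over X2 in the PDPN-negative CCR7 cells. Slc18a1 (-1.46, SE 0.31) and Slco2b1 (-1.24, SE 0.32) were also lower, Nhsl2 fell from 6, 14, 21 and 5 reads to 1, 0, 4 and 1, and Magea10 to 0, 2, 0 and 1. Scara5 and Cers4 were called at -1.30 and -1.01 (adjusted p = 0.0283 and 0.026). Scara5 lost its call without CCR7 replicate 3 or CCR7-PDPN replicate 1, 2 or 3, and Cers4 without CCR7 replicate 4 or CCR7-PDPN replicate 2 or 4, with adjusted p of 0.051 to 0.167 in these fits. Gprc5c, under edgeR's filter with all libraries, was called lower by DESeq2 (adjusted p = 0.0145) and by edgeR without the filter (adjusted p = 0.00419). With a library left out, edgeR called Gprc5c lower here in 9 fits and higher in CCR7 against X2 in 6.

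Between CCR7-PDPN and X2 of batch 1, the choice had already fixed that both derivatives were low in batch 2, but not their order. No member was called higher by edgeR and 13 were lower, beside 4.09% and 5.36% of all genes; at an unadjusted p under 0.05, 2 had a higher and 20 a lower level at any fold, and DESeq2 called 1 higher. This was Plac1, which missed edgeR's filter on low counts with all libraries and was called higher in 11 of 12 edgeR fits with a library left out. DESeq2 also called Prelp, Antxr1, Nynrin and Abca9 lower (adjusted p = 0.000299, 0.0114, 9.72e-05 and 0.0248), all of them under that filter, and Prelp was lower in 9 of the 12 edgeR fits. By ranges, 1 of the 51 had every CCR7-PDPN library above X2 and 22 had every one below, where 25% and 32.1% of all genes did. Rcn3 had 0.469, 0.445, 0.384 and 0.367 CPM in CCR7-PDPN of batch 1 (log2 fold change -2.15 against X2, SE 0.21, adjusted p = 1.13e-08). Slco2b1 had 0.313, 0.381, 0.244 and 0.367 CPM against 1.26, 1.63, 0.963 and 1.86 in X2 (-2.07, SE 0.29, adjusted p = 2.12e-06). Rab7b, Plxnb1, Acvrl1, Adgrf5, Slc18a1, Padi2 and Gm4316 fell by 1.67, 1.38, 1.47, 1.31, 1.27, 1.15 and 1.07 on the log2 scale. Of the genes with few reads, Aox3 had 2, 1, 3 and 5 reads in the CCR7-PDPN libraries and Scara5 had 3, 2, 2 and 4. Magea10 and Nhsl2 were also called lower, and Nynrin, which was under edgeR's filter, had 0 in every CCR7 and CCR7-PDPN library of batch 1 against 8, 4, 9 and 8 in X2. Without CCR7-PDPN replicate 2 Padi2 was not called (log2 fold change -0.94), and without replicate 3 or 4 Gm4316 was not (-0.94 and -0.97). The 3 comparisons share groups and are not independent of each other.

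The level in X2-PDPN could be set beside that in CCR7 only across the batches. By mean CPM, X2-PDPN was at least 3 times CCR7 in 41 of the 51 genes and in 3.01% of all genes of the table. The members had been chosen for a high X2-PDPN level, so this count partly follows from the choice. The 10 others were Col9a1 (2.57 times), Cmklr1 (1.05), Slc9a9 (1.26), Meox1 (1.74), Gstm6 (2.20), Ppm1n (2.20), Ptprtos (2.43), Pi16 (2.83), Gprc5c (2.90) and Slc18a1 (2.97). At the other end X2-PDPN was 47.6 times CCR7 for Rcn3 and 30.7 times for Magea10. For Aox3 and Nedd9 the CCR7 mean was under the level of 3 reads, and no ratio is given. It was at least 11.5-fold higher for Nynrin, with 3 reads in the shallowest CCR7 library as the floor. Prelp, Sel1l3 and Tceal8 had too few reads in CCR7 for a ratio, with 2, 1, 0 and 2 for Prelp, 1, 0, 1 and 0 for Sel1l3 and 0, 1, 0 and 1 for Tceal8. CCR7 and X2-PDPN never shared a batch, and these ratios were not tested. X2, which was in both, had a median ratio of 1.01 between batch 1 and batch 2 over the 51 genes.

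**Figure D4:**
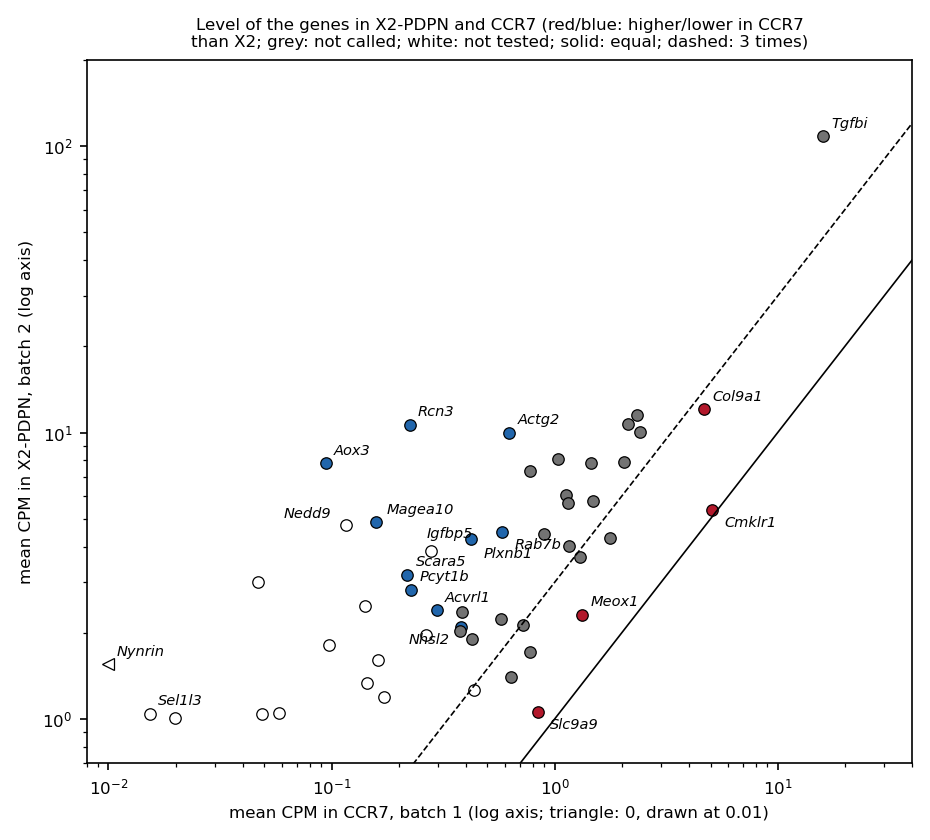
Mean CPM of the 51 genes in CCR7 of batch 1 (horizontal, log axis) and in X2-PDPN of batch 2 (vertical, log axis), with lines at equal level and at 3 times. Cmklr1 and Slc9a9 lie next to the line of equality, Col9a1 and Meox1 between the lines, and 41 genes above the dashed line.

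Most lists of related genes held at most 1 of the 51. Among cartilage genes, 18 of 40 were in the batch 2 table, and Col9a1 alone was 3 times higher in X2-PDPN than in X2, with a median fold of 1.09 over the list. In CCR7 against X2, Col9a1 and Wwp2 of that list were higher and Matn4 and Fgfr3 lower among 18 tested. Among muscle contraction genes, Actg2 and the myosin light chain kinase gene Mylk were 3 times higher in X2-PDPN, with a list median of 1.34. In batch 1 Actg2 and Myh3 were lower and Mylk higher in CCR7 than in X2, among 21 tested. Among TGF-beta and BMP pathway genes, Acvrl1 alone was 3 times higher in X2-PDPN (list median 1.03), and in CCR7 it was lower together with Tgfb2, Gdf5, Bmp7, Smad9 and Chrd while Smad6 was higher, among 31 tested. Of the Wnt pathway genes, Wnt11 and the R-spondin receptor gene Lgr6 were 3 times higher in X2-PDPN (list median 1.41), and in CCR7 Wnt2b was higher and Wnt6 and Rnf43 lower among 18 tested, Wnt11 not being tested. Among oxidases and dehydrogenases of xenobiotics, Aox3, Aldh3a1 and Gsta4 were 3 times higher in X2-PDPN (list median 1.15), and in CCR7 Ugt1a7c and Gsta4 were higher and Aox3 and Fmo1 lower among 18 tested. Among mesenchymal markers, Tgfbi and S100a4 were 3 times higher in X2-PDPN (list median 1.05), and none was higher and 6 of 24 were lower in CCR7. The medians of X2-PDPN over X2 in these 6 lists lay between 1.03 and 1.41. In the lists without a member they were 0.360 for interferon-stimulated genes, 0.946 for neuronal, 1.05 for hypoxia and 1.08 for cytokine genes.

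Bulk RNA cannot tell fewer expressing cells from less RNA per cell. Markers of other cell types were summed beside the set. Of 10 endothelial markers 4 were in the batch 2 table, with 1.48 to 2.76 CPM in all in X2-PDPN libraries and 1.53 to 2.50 in X2. The leukocyte markers, 4 of 12 in the table, summed to 27.7 to 32.6 CPM in X2-PDPN, 53.5 to 58.4 in X2 and 11.4 to 13.9 in CCR7-PDPN. Basal epithelial markers, 2 of 9, summed to 59.3 to 61.6, 33.1 to 34.6 and 14.0 to 15.1 CPM in the same order, fibroblast markers, 5 of 10 with Pdpn among them, to 288.7 to 304.6, 233.9 to 241.6 and 264.0 to 280.1 CPM, and luminal epithelial markers, 3 of 10, to 268.4 to 291.5, 223.7 to 234.5 and 282.8 to 302.8 CPM. The chondrocyte markers, 4 of 7 with Col9a1 among them, had 71.3 to 75.8, 64.5 to 70.6 and 54.7 to 62.1 CPM. Col9a1 itself had means of 12.1, 0.768 and 1.13 CPM in the same order. The higher X2-PDPN sum therefore does not show a rise of the other chondrocyte markers. In batch 1 the leukocyte markers summed to 52.6 to 61.7 CPM (X2), 18.4 to 24.0 CPM (CCR7) and 13.0 to 14.7 CPM (CCR7-PDPN), with 7 to 8 of 12 under 0.1 CPM. These sums hid moves in opposite directions. Cd79a was at least 3 times higher in X2-PDPN than in X2. In batch 1, among 3 leukocyte markers tested, Cd79a was called higher and Lyz2 and Cd68 lower in both CCR7 and CCR7-PDPN than in X2. The part of the cell type markers in the levels of the 51 genes was not tested.

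Of the 51 genes 37 had promoter windows, 49 in all, and 14 had none. The windows were poor in CpG dinucleotides, with a median of 5 against 15 in the 12574 windows of genes of the batch 2 table and 6 in all 32851 windows. At least 10 CpG were found in 28.6% of the members' windows, 69.5% of those of genes of the table and 37.8% of all. The GC box GGGCGG or CCGCCC was in 26.5%, 57.1% and 32.7%, and the E-box CANNTG in 51.0%, 57.6% and 66.2%. The letters GGAATG or CATTCC were in 13 of the 49 windows (26.5%), which belong to 12 genes, against 10.7% of the windows of genes of the table and 12.6% of all. These genes were Igfbp5, Atp2b4, Napb, Atp9a, Rcn3, Slco2b1, Gm4316, Dpep1, Plxnb1, Magea10, Pcyt1b and Tceal8. The EGR site GCGTGGGCG was in the windows of Atp9a and Padi2 (4.08% of windows, 1.07% in genes of the table). The TATA box and the AP-1 site were each in 4.08% of the members' windows, against 6.38% and 4.7%. The hypoxia response core ACGTG was in 10.2% against 21.7%, the RUNX site TGTGGT in 12.2% against 10.8%, the SOX site ACAATG in 4.08% against 6.27%, and the SMAD site GTCTAGAC in none. The 10 motifs were searched on both strands, the EGR site can share bases with the GC box, and matches are letters in a window, not bound sites.

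**Figure D5:**
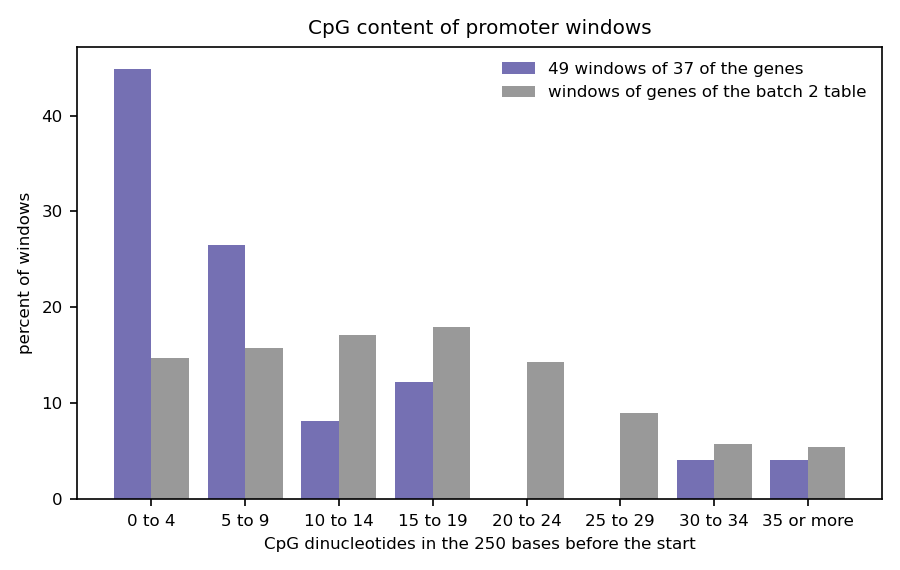
Share of promoter windows (vertical, percent) by number of CpG dinucleotides in the 250 bases before the start (horizontal, bins of 5), for the 49 windows of 37 of the 51 genes and for the windows of genes of the batch 2 table. In the bin of 0 to 4 CpG lie 44.9% of the former and 14.7% of the latter.

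The genes were spread over the genome, with 6 on chromosome 1, 6 on chromosome 7, 5 on chromosome 11, 5 on the X chromosome, and none on chromosomes 12, 16, 18 and 19. The X chromosome held 9.80% of the members and 2.95% of the genes of the table, and the X-linked members were Magea10, Pcyt1b, Nhsl2, Plac1 and Tceal8. Within 1 Mb of each other lay 4 pairs, Atp2b4 and Prelp 109 kb apart on chromosome 1, Dpep1 and Gm4316 7.48 kb apart on chromosome 8, Celsr2 and Gstm6 on chromosome 3, and Slco2b1 and Wnt11 on chromosome 7. Dpep1 and Gm4316 had 8.09 ± 0.575 and 7.85 ± 0.595 CPM in X2-PDPN, which per length is 12.2 and 8.31 TPM. For the 48 members with at least 5 other genes of 1 CPM within 1 Mb, the median fold of those genes between X2-PDPN and X2 was 0.828 to 1.20. For CCR7 over X2 the same medians were 0.707 to 1.75. The members with fewer such genes were Adgrf5 (4 genes, median 1.7 in X2-PDPN over X2), Igfbp5 (4 genes, 0.888) and Napb (3 genes, 1.09). Around Slco2b1 and Wnt11, 2 other genes were at least 3 times higher in X2-PDPN than in X2. There was 1 such gene around Celsr2 and Gstm6, and 0 around the other pairs. Around Dpep1 and Gm4316 the 40 other genes had a median of 1.75 in CCR7 over X2, while Dpep1 and Gm4316 themselves were at 0.638 and 0.621 times X2. Around Col9a1, Cmklr1 and Meox1 the median was 0.951, 1.03 and 0.969, and around Slc9a9, with 7 such genes, 1.33. Exons of Rcn3, Slco2b1, Pi16, Add2 and 9 other members overlap a gene on the opposite strand. The libraries were stranded, but the strand setting of the counting is not given in the sources used here, so reads of such pairs may be mixed.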

How the data were processed

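RNA of EO771 derivatives was sequenced in 2 batches (24 libraries, 4 technical replicates per group). The deposited values are whole-number read counts per gene, which the authors obtained from stranded single-end mRNA libraries mapped to GRCm38/mm10, the builds named in the submitters' processing notes. Batch 1 was counted with featureCounts. Its version and strand setting, the counting program of batch 2 and the filter behind the shorter batch 2 table are not given in the sources used here. Library totals were 22275468 to 35721027 counts, and at this depth 3 reads were taken as the floor. CPM was the count divided by the column total, and TPM used the gene lengths in the batch 1 table. Groups came from the labels.

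The members and lists were chosen with earlier results of these data known, and the roles were assigned after the members were seen. Batch 1 counts were tested with edgeR 4.0.16 in R 4.3.3 (filterByExpr, TMM, quasi-likelihood test, all 3 groups in 1 fit, Benjamini-Hochberg adjustment, absolute log2 fold change above 1), and DESeq2 1.42.0 was an alternative. Other steps used Python 3.11.15, numpy 2.4.6, pandas 2.3.3 and matplotlib 3.10.9. Tested on simulated data for CCR7 against X2 (13167 genes, 200 changed by a log2 fold change of 2), the edgeR step recovered 200 and called 1 unchanged gene. The changed genes were drawn only from those above a minimum expected count, with a fixed small spread. The recovery therefore does not speak for members with few reads. Named genes were Pdpn, Ccr7, Col9a1, the 12 members of highest X2-PDPN mean, up to 6 called members per direction and comparison, members in a list, and those 3 inside and 3 outside each threshold. The other members were named by role after their values were seen, to account for the set. Alternatives changed the fold, the CPM minimum, the scaling, the filter, the test and the libraries used.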

Additional observations from a re-analysis of the deposited data

Results flagged for a closer look

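In a Dixon test of the 4 libraries of each group for 32 named genes, 8 of 192 groups had a library apart from the others, where 9.6 are expected at 1 in 20. Cdon had 3.22 CPM in X2 library 2 of batch 2, against 2.83 to 2.87 in the other three. Pcbp3 had 1.69 CPM in X2 library 1 of batch 1, against 1.99 to 2.05. Gm4316 had 2.11 CPM in the same library, against 2.41 to 2.44. Nhsl2 had 0.788 CPM in X2 library 2 of batch 2, against 0.633 to 0.659. Slc9a9 had 0.160 CPM (5 reads) in X2 library 3 of batch 1, against 0.0688 to 0.0838. Sel1l3 had 0.0334 CPM in CCR7-PDPN library 4 of batch 1 and 0.0372 CPM in X2 library 1 of batch 2, each a single read where the other libraries had 0. The transgene Ccr7 had 2774 CPM in CCR7-PDPN library 4 of batch 1, against 3041 to 3095 in the others. None of these libraries was one of X2-PDPN or CCR7.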

How the results depend on the processing

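The size of the set depended on its thresholds. With a fold of 2 in place of 3 it held 156 genes, with a fold of 4 it held 27, and when every X2-PDPN library had to be 3 times every library of the others it held 25; leaving out 1 library gave 46 to 52. At a fold of 4, 2 members were that much higher in CCR7 than in X2 (4 to 5 at a fold of 3 with a library left out), and 26 met the criteria with the batch 1 controls (43 to 46 with a library left out). Without a fold threshold, 6 members were higher in CCR7-PDPN than in CCR7 (1 to 2 with a library left out) and 2 higher than in X2. Lower at any fold were 14 in CCR7 against X2, 14 in CCR7-PDPN against CCR7 and 19 in CCR7-PDPN against X2. In CCR7 against X2 this added Slco2b1, Adgrf5, Gm4316 and Dpep1 (log2 fold changes -0.83, -0.82, -0.70 and -0.62). Without the filter on low counts, and with DESeq2, 1 was higher in CCR7-PDPN than in X2 (0 to 1 with a library left out). The other counts with a library left out were 4 to 6 higher and 8 to 11 lower in CCR7 against X2, 9 to 12 lower in CCR7-PDPN against CCR7, and 13 to 16 lower in CCR7-PDPN against X2. The cause of these shifts was not tested beyond the change of setting itself. Fold changes of called members were recomputed 681 times, of which 657 kept direction and call, 24 missed the threshold and 0 changed sign; 32 of 38 pairs of member and comparison kept their call throughout. Of the members that did not, Nhsl2 had an adjusted p of 0.0643 with DESeq2 in CCR7 against X2, and in CCR7-PDPN against CCR7 Scara5 had 0.0705 without the filter and 0.0654 with DESeq2, and Cers4 0.0691 and 0.0832.

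The replicate numbers did not pair the samples, since 0 of 12 correlations between same-numbered libraries exceeded 0.1 (-0.12 to 0.0503). With the replicate block, 4 members were higher and 10 lower in CCR7 against X2, and 1 higher and 9 lower in CCR7-PDPN against CCR7, where Cers4 narrowly missed the fold threshold (log2 fold change -0.999).

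Depth limits the genes with few reads. A floor of 3 reads left Nynrin with only a lower bound against CCR7, and 15 of the 51 genes were not tested in batch 1.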
